A study of Mus musculus with 7 samples.

Results

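The small leucine-rich proteoglycans are secreted matrix proteins, and 10 of their genes were chosen here by name: Dcn, Bgn, Fmod, Lum, Prelp, Ogn, Aspn, Omd, Podn and Ecm2. Each was 1 row of a table of 56980 mouse genes, and all 10 were found. The hearts came from wild-type male C57BL/6J mice, the inbred black mouse strain, bought when 8 weeks old and rested for 1 week before surgery. In the MI mice (n = 3) the left coronary artery was tied off, and myocardium was taken 4 days later. The sham-operated mice (n = 4) had the same operation with no ligation. Every mouse was male and wild type, and each gave 1 library. The study calls the tissue of the MI mice ischemic myocardium, and how it was dissected from spared muscle is not given in the sources used here.

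These proteins have a core of leucine-rich repeats, a curved fold that lies along collagen fibrils and sets how thick they grow and how they pack. Many carry chains of chondroitin, dermatan or keratan sulfate on that core. Decorin (Dcn), biglycan (Bgn) and asporin (Aspn) form class I of the family, while fibromodulin (Fmod), lumican (Lum), prolargin (Prelp) and osteomodulin (Omd) belong to class II, osteoglycin (Ogn) to class III and podocan (Podn) to class V. Ecm2 encodes a matrix protein with related repeats. In the heart such genes are mainly transcribed by fibroblasts, and a collagen-rich scar replaces lost muscle after infarction.

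Expression was given as FPKM, the fragments counted on a gene divided by its length and by the depth of the library. Depth, read from the steps of the values, was 19977713 to 23473542 fragments in the sham mice and 21781014 to 23610870 in the MI mice. MI replicate 2 stood apart from the other MI mice. Across the 11431 genes tested, Pearson's r between it and the sham mice was 0.984 to 0.987, against 0.878 to 0.906 for MI replicates 1 and 3. Mitochondrial genes held 26.5 to 27.4% of the fragments in the sham mice and 13.6%, 28.2% and 14.9% in MI replicates 1, 2 and 3. The cardiac muscle markers Myh6, Tnnt2, Tnni3, Actn2 and Myl2 summed to 6546 to 6867 FPKM in the sham mice, and to 3319, 6620 and 3903 in the 3 MI mice. For that reason values are given for each mouse, and the tests were repeated without MI replicate 2.

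The genes lie in 3 clusters and at 2 single sites on GRCm38 (GENCODE M21). On chromosome 13, Ecm2 (49504810 to 49532789), Aspn (49544443 to 49567565), Omd (49582462 to 49592822) and Ogn (49608046 to 49624501) follow each other on the plus strand, with gaps of 11.7, 14.9 and 15.2 kb. The cluster sits inside Cenpp, a centromere gene on the opposite strand that shares 7 exon bases with Aspn and 0 with the other 3, and that reached no more than 0.656 FPKM. On chromosome 10, Dcn (97479609 to 97518143) and Lum (97565128 to 97572703) are followed by Kera (keratocan) and Epyc (epiphycan), all on the plus strand. On chromosome 1, Prelp (133910304 to 133921414, minus strand) lies 115.8 kb from Fmod (134037254 to 134048277, plus strand) and 2.3 kb from Optc (opticin). Bgn is on the plus strand of chromosome X (73483602 to 73495933) and Podn on the minus strand of chromosome 4 (108014791 to 108096445). The span of Podn overlaps Scp2 on the same strand, which reached 33.7 FPKM, with 0 exon bases shared in GENCODE M21. The length behind the Podn FPKM was 9261 bases, against 4270 in M21. Whether the annotation used for counting shared bases with Scp2 is therefore not known. Prelp shares 350 exon bases with Gm15851 on the opposite strand, which reached at most 0.576 FPKM. Since the sources do not say whether counting used the strand, reads from the shared exon bases of Prelp and Gm15851, and of Aspn and Cenpp, cannot be told apart.

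**Figure D1:**
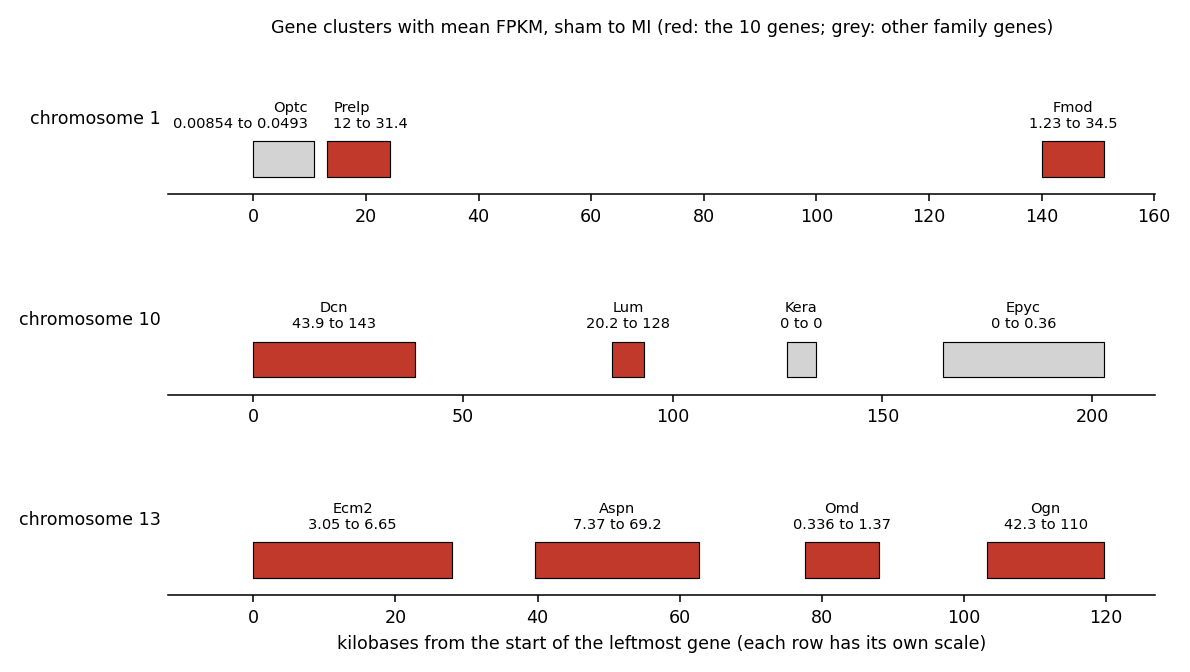
Positions of the 3 proteoglycan gene clusters in kilobases from the leftmost gene, each row with its own scale. The numbers over each box are the mean FPKM of the 4 sham mice and of the 3 MI mice, for example 7.37 and 69.2 for Aspn beside 0.336 and 1.37 for its neighbour Omd.

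Upstream sequence was available from RefSeq (GRCm38.p6) for 8 of the 10 genes, all but Dcn and Lum. The 100 bases before the transcription start are printed for 5 of them. Fmod, Bgn and Aspn had the largest differences of these 8 genes, and Ogn and Prelp differed from Dcn in the opposite sense, as described below. The stretches lie at chr1:134037154-134037253 (plus), chrX:73483501-73483600 (plus), chr13:49544343-49544442 (plus), chr13:49607915-49608014 (plus) and chr1:133921402-133921501 (minus), written 5′ to 3′ on the strand of the gene. Capitals mark a match, on either strand, to 1 of 5 motifs. These were the TATA box, searched as TATAAA, the AP-1 site, searched as TGANTCA, the TEAD site, searched as GGAATG, the CCAAT box and the GC box, searched as GGGCGG.
Fmod: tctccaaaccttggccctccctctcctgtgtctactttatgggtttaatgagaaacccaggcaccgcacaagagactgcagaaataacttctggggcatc
Bgn: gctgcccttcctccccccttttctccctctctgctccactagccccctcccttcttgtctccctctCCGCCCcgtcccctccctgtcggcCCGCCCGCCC
Aspn: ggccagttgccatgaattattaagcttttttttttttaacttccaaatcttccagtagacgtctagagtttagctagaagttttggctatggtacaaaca
Ogn: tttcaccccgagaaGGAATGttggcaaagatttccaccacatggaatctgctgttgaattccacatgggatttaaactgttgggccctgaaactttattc
Prelp: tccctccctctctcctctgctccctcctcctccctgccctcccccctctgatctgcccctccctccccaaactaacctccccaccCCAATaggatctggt
The Bgn stretch ends in GC boxes read on the minus strand, the last 2 overlapping each other. Ogn has a TEAD match and Prelp a CCAAT box, and no listed motif was found in these 100 bases of Fmod or Aspn. Over the whole window, from 250 bases before to 50 after the start, a GC box was present for 3 of the 8 genes (Bgn, Ecm2, Podn) and for 35.7% of all 32851 promoters. CCAAT was present for 3 (Fmod, Prelp, Aspn) and for 37.4% of all promoters, TATAAA for 2 (Ogn, Aspn) and for 13.6%, and GGAATG for 1 (Ogn) and for 14.7%. TGANTCA was found for 0 of the 8 and for 7.81% of all promoters. No motif was shared by all 8 genes. Podn has 2 annotated starts and so 2 windows, of which 1 holds the GC box. Their G and C content ran from 31% for Aspn, lower than in all but 1.28% of promoters, through 51% for Fmod and 63.7% for Bgn to 63% and 77% for the windows of Podn.

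The 10 proteoglycans were transcribed at very unequal levels in the uninjured heart. Dcn, the archetype of the family and a binder of collagen and of transforming growth factor beta, stood at 43.9 ± 2.88 FPKM (SD, n = 4), and Ogn, a protein of the fibril surface, at 42.3 ± 3.20 (SD, n = 4). The ranges of these 2 genes overlapped. Lum followed at 20.2 ± 0.885 and Bgn at 18.5 ± 0.466 FPKM (SD, n = 4), which also overlapped. Prelp, Aspn and Ecm2 came next with ranges apart, at 12.0 ± 0.349, 7.37 ± 0.430 and 3.05 ± 0.181 FPKM (SD, n = 4). Podn and Fmod overlapped each other at 1.89 ± 0.518 and 1.23 ± 0.547, and Omd was lowest at 0.336 ± 0.0807 FPKM (SD, n = 4). The order rests on the gene lengths behind the FPKM values, which were 6967 bases for Dcn and 9670 for Bgn, against exon lengths of 5838 and 6099 in GENCODE M21. Per kilobase of the M21 lengths, Dcn at 48.2 to 56.2 lay above Ogn at 39.1 to 46.3, and Bgn at 28.5 to 30.3 lay above Lum at 19.0 to 20.9, in every sham mouse. On the same lengths Ecm2 at 4.05 to 4.66 overlapped Podn at 2.51 to 5.10, Fmod at 0.335 to 0.999 overlapped Omd at 0.307 to 0.530, and Podn and Fmod no longer overlapped. In the MI mice Bgn had the highest mean, 160.2 ± 118 FPKM (SD, n = 3), ahead of Dcn at 142.7 ± 73.5 (SD, n = 3), and in replicates 1 and 3 but not in replicate 2 Bgn exceeded Dcn.

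**Figure D2:**
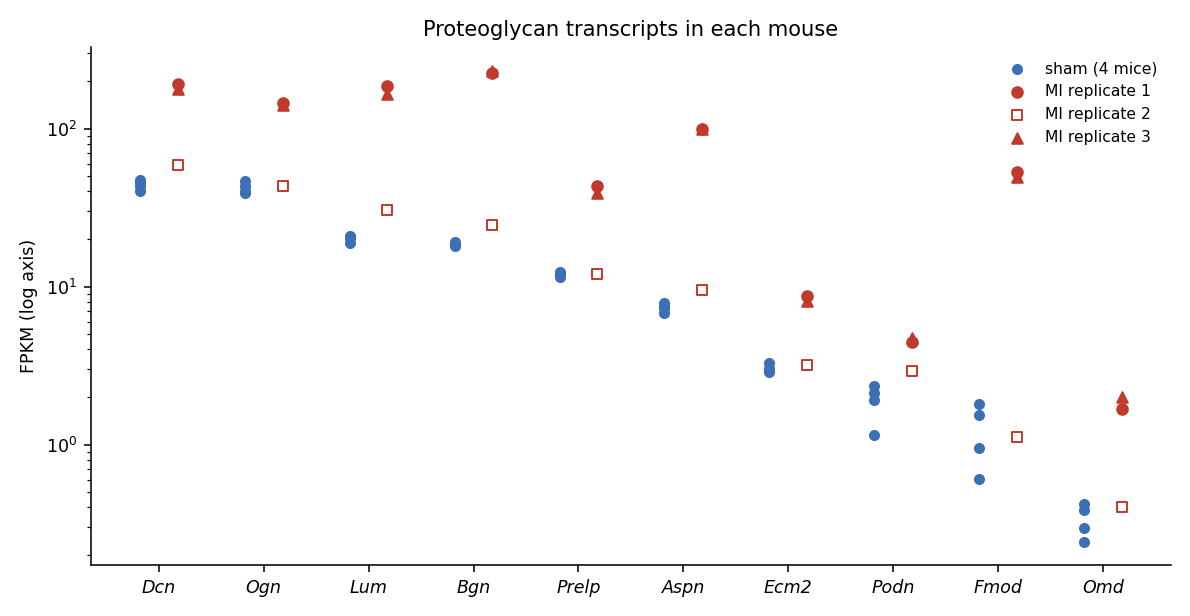
FPKM on a log axis for the 10 genes in each of the 7 mice, ordered by their sham level, with sham mice as blue circles on the left and the MI mice on the right of each gene. MI replicates 1 and 3 lie above every sham mouse for all 10 genes, while MI replicate 2 (open square) lies within the sham range for Fmod, Prelp, Ogn, Omd and Ecm2.

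After ligation the proteoglycans were higher as a family, very strongly in 2 of the 3 hearts. The summed FPKM of the 10 genes was 154.7, 146.7, 146.5 and 155.5 in sham replicates 1 to 4. It was 960.7, 186.1 and 915.9 in MI replicates 1 to 3. Every MI heart was above every sham heart, with MI replicate 2 near the sham values and the other two far from them. The difference in log2 of the sum was 1.86 (exact two-sided permutation p = 0.0571, which is the lowest that this test, doubling the smaller tail, allows over the 35 splits of 3 against 4 mice). Without MI replicate 2 it was 2.64 (exact two-sided permutation p = 0.133, the lowest that the same test can give with 2 against 4 mice). In RNA from bulk tissue, more cells of a type and more RNA per cell cannot be told apart.

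For tests of single genes, log2(FPKM + 1) of 11431 genes with at least 1 FPKM in at least 3 mice was fitted with limma, and p-values were adjusted over all of them by the Benjamini-Hochberg method. Of the 10 proteoglycans 9 passed this filter. Fmod, at 0.952, 0.606, 1.54 and 1.81 FPKM in sham replicates 1 to 4, needed the MI mice to pass it. Its place in the counts below is therefore tied to the filter. Omd had at least 1 FPKM in only 2 mice, MI replicates 1 and 3, and was not tested there. At an adjusted p under 0.05, 0 of the 9 passed, beside 0.0175% of all genes tested that were higher in MI, 0.00875% that were lower and 0.0262% in either direction, and the adjusted p of the 9 ran from 0.108 to 0.109. All 9 had an unadjusted p under 0.05 in limma and a log2 change over 0.5. This second criterion was met by 17.8% of all genes tested in the higher direction and by 4.8% in the lower. With voom weights on recovered fragments 8 of the 9 met it, beside 2523 of 11430 genes in the higher direction. In 5 of the 9 every MI mouse exceeded every sham mouse, against 16.1% of all genes, and in 0 was every MI mouse lower, against 9.0%. The median log2 change of the 9 was 1.50, beside 0.21 for all genes tested.

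These counts depended on single hearts. Without MI replicate 2, all 9 passed an adjusted p of 0.05 in limma, but so did 57.0% of all genes in the higher direction, and the median changes were 2.05 for the 9 and 0.33 for all genes. The second criterion was then met by 9 of the 9 and by 35% of all genes, and MI was above sham without overlap in 10 of the 10 and in 61.9% of all genes. Without MI replicate 1, 5 of the 9 met the second criterion, beside 5.57% of all genes tested. Without MI replicate 3 it was again 5, beside 5.6%. Those 5 were Dcn, Bgn, Lum, Aspn and Podn both times, the same genes whose groups did not overlap with all mice, and in each of these fits 16.9% of all genes did not overlap, with MI above.

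**Figure D3:**
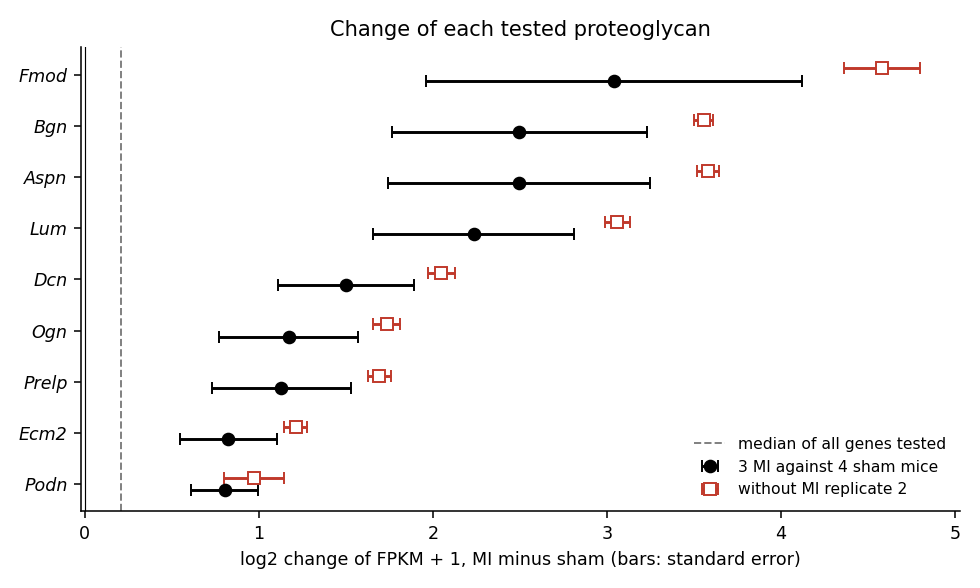
Log2 change of FPKM + 1 (MI minus sham) with its standard error for the 9 tested genes, from all 7 mice (filled circles) and without MI replicate 2 (open squares). The dashed line is the median of all genes tested, 0.21, and every gene lies to its right, from 0.80 for Podn to 3.04 for Fmod.

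Among class I genes, Dcn was the least different and Bgn and Aspn the most. Dcn measured 47.1, 45.2, 40.4 and 43.0 FPKM in sham replicates 1 to 4 and 192.6, 58.4 and 177.2 in MI replicates 1 to 3. All MI hearts were above the sham hearts, and the counts were 5991 to 7358 fragments in the sham mice and 9204 to 29232 after MI. The log2 change was 1.50 (standard error 0.39, limma adjusted p = 0.108), or 1.29 above the median gene. It was 2.05 (standard error 0.077) without MI replicate 2.

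Bgn, whose free protein is known as a danger signal for the innate receptors Tlr2 and Tlr4, measured 19.1, 18.0, 18.6 and 18.3 FPKM in the sham mice. In the MI mice it measured 224.8, 24.4 and 231.6 FPKM. The groups did not overlap, and the ratio of means was 8.67. Its log2 change of 2.50 (standard error 0.73, limma adjusted p = 0.108) ranked 45 among the 11431 genes, and without MI replicate 2 the change was 3.56 (standard error 0.053).

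Aspn, named for the run of aspartate in its protein and known to hold back transforming growth factor beta in cartilage, measured 7.35, 6.81, 7.48 and 7.85 FPKM in the sham mice and 99.4, 9.47 and 98.8 in the MI mice. MI replicate 2 was again only slightly above the sham range. The log2 change was 2.50 (standard error 0.75, limma adjusted p = 0.108), rank 46, and 3.58 (standard error 0.065) without MI replicate 2. The Bgn and Aspn profiles over the 7 mice, as deviations from the sham mean, differed by a root mean square of 0.055 on the log2 scale. No other gene tested was closer to Bgn than Aspn, or closer to Aspn than Bgn, although Bgn is on chromosome X and Aspn on chromosome 13.

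In class II the genes were further apart. Lum, which keeps collagen fibrils thin and the cornea clear, measured 19.0, 20.7, 20.9 and 20.2 FPKM in the sham mice and 187.0, 30.7 and 165.1 in the MI mice. With 1.52 times the sham mean in MI replicate 2, it stood out clearly there too. Its log2 change was 2.23 (standard error 0.58, limma adjusted p = 0.108), and 3.06 (standard error 0.073) without that heart.

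Fmod, which binds the same stretch of collagen as lumican and is abundant in tendon, measured 0.952, 0.606, 1.54 and 1.81 FPKM in the sham mice, on 24 to 66 fragments. In MI replicates 1 and 3 it measured 53.0 and 49.3 FPKM, on 2108 and 2124 fragments, 41.7 times the sham mean. MI replicate 2, at 1.11 FPKM and 46 fragments, lay inside the sham range. Its log2 change of 3.04 was the largest of the 9 and had the largest standard error (1.08, limma adjusted p = 0.109, exact two-sided permutation p = 0.171). Without MI replicate 2 the change was 4.58 (standard error 0.22).

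Prelp, which links basement membranes to the connective tissue beneath, measured 12.2, 12.0, 11.5 and 12.3 FPKM in the sham mice and 43.2, 12.0 and 39.0 in the MI mice. The second MI heart lay within the narrow sham range. The log2 change was 1.13 (standard error 0.40, limma adjusted p = 0.109), and 1.69 without MI replicate 2. Omd, a protein of mineralised matrix, stood at 0.297, 0.243, 0.418 and 0.386 FPKM in the sham mice and at 1.69, 0.403 and 2.01 in the MI mice. The ratio of means was 4.07, and the groups overlapped through MI replicate 2 (exact two-sided permutation p = 0.114).

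The remaining genes were Ogn, Podn and Ecm2. Ogn, class III and linked to heart mass in earlier work, measured 43.5, 39.1, 40.5 and 46.3 FPKM in the sham mice and 145.9, 43.5 and 140.1 in the MI mice. MI replicate 2 was in the middle of the sham range, and the log2 change was 1.17 (standard error 0.40, limma adjusted p = 0.108), or 1.74 (standard error 0.079) without that heart. Podn, which restrains smooth muscle growth, measured 1.93, 1.16, 2.12 and 2.35 FPKM in the sham mice and 4.47, 2.93 and 4.71 in the MI mice. Its log2 change was 0.80 (standard error 0.19, limma adjusted p = 0.108), and 0.97 (standard error 0.17) without MI replicate 2. On the log2 scale the value of Podn in MI replicate 2 lay 0.47 above the sham mean, which was 47.9% of the mean difference in the other two MI hearts, against -0.911 to 19.7% for the other 9 genes. Ecm2 measured 3.30, 2.87, 3.01 and 3.02 FPKM in the sham mice and 8.65, 3.20 and 8.09 in the MI mice, a log2 change of 0.83 (standard error 0.28, limma adjusted p = 0.108) with overlapping groups, and of 1.21 (standard error 0.066) without MI replicate 2. Adding 1 to each FPKM understates the change of low genes, and with 0.1 added it was 1.07 for Podn and 0.98 for Ecm2, the reverse of their order with 1 added.

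Genomic neighbours did not share a size of change. In the chromosome 13 cluster the ratio of mean FPKM, MI to sham, was 2.18 for Ecm2, 9.39 for Aspn, 4.07 for Omd and 2.59 for Ogn. On chromosome 10 it was 3.25 for Dcn and 6.32 for Lum. Kera, 34.2 kb from Lum and a proteoglycan of the cornea, was listed at 0 in all 7 mice. Epyc, a cartilage proteoglycan, was listed at 0 in the sham mice and in MI replicate 2, and at 0.492 and 0.589 FPKM in MI replicates 1 and 3. On chromosome 1 the ratio was 2.61 for Prelp and 28.1 for Fmod, and Optc did not exceed 0.105 FPKM in any mouse.

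Because FPKM is per length, the make-up of the family could be compared within each heart without scaling between mice. Dcn and Ogn were the leading transcripts of the sham hearts and held smaller shares in MI replicates 1 and 3. Ogn made up 28.1, 26.6, 27.6 and 29.8% of the summed FPKM in the sham mice and 15.2, 23.4 and 15.3% in the MI mice. All MI hearts were below all sham hearts for Ogn (exact permutation p of 0.0571, both sides), MI replicate 2 included. The share of Dcn was 29.1% ± 1.73 (SD, n = 4) in the sham mice and 20.1, 31.4 and 19.3% in the MI mice, with overlap (exact two-sided permutation p = 0.286).

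The share of Bgn was 12.3% ± 0.375 (SD, n = 4) in the sham mice and 23.4, 13.1 and 25.3% in the MI mice, and that of Lum was 13.4% ± 0.966 (SD, n = 4) against 19.5, 16.5 and 18.0%. Both were higher in every MI heart (exact two-sided permutation p = 0.0571 each). The shares of Prelp and Ecm2 were lower in every MI heart, from 7.97% ± 0.156 to 5.07% ± 1.20 and from 2.02% ± 0.0903 to 1.17% ± 0.477 (SD, n = 4 and n = 3, exact two-sided permutation p = 0.0571 each). Class I genes together held 46.3% ± 1.59 of the sum in the sham mice (SD, n = 4) and 53.8, 49.6 and 55.4% in the MI mice, and class II genes 22.4% ± 1.08 (SD, n = 4) against 29.7, 23.8 and 27.9%. Without MI replicate 2 the share differed, MI minus sham, by 12.1 percentage points for Bgn, 5.33 for Lum, -3.59 for Prelp, -1.13 for Ecm2, -12.8 for Ogn and -9.43 for Dcn (exact two-sided permutation p = 0.133 each).

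**Figure D4:**
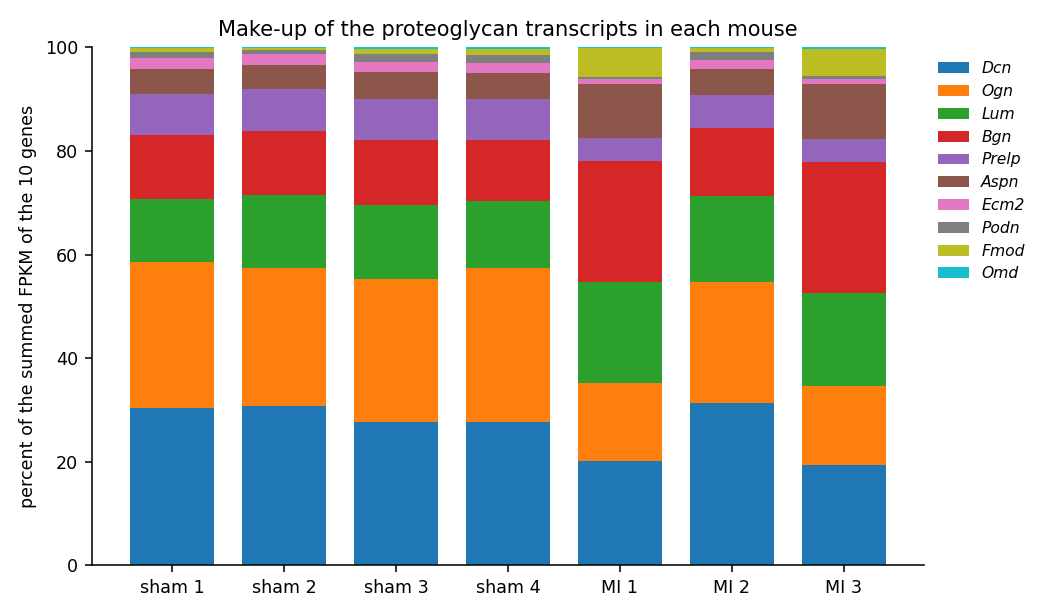
Percent of the summed FPKM of the 10 genes held by each gene, 1 bar per mouse. In MI replicates 1 and 3 Bgn holds 23.4% and 25.3% and Ogn 15.2% and 15.3%, while MI replicate 2, with 13.1% and 23.4%, lies nearer to the sham bars.

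The difference of each gene from Dcn was then tested within mice, on log2(FPKM + 1), for 9 ratios. The ratio of Lum to Dcn was higher in every MI heart, by 0.73 on average (exact two-sided permutation p = 0.0571), and by 1.01 without MI replicate 2. Those of Bgn, Aspn and Fmod were higher by 1.00, 0.99 and 1.54, but in MI replicate 2 they lay within the sham range (exact two-sided permutation p = 0.171, 0.171 and 0.229). Without MI replicate 2 these differences were 1.51, 1.53 and 2.53.

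Prelp and Ogn showed another pattern. Relative to Dcn, Prelp stood at -1.86, -1.83, -1.73 and -1.73 in the sham mice and at -2.13, -2.19 and -2.15 in the MI mice. Ogn stood at -0.11, -0.20, 0.0032 and 0.10 in the sham mice and at -0.40, -0.41 and -0.34 in the MI mice. For both ratios MI replicate 2 lay with the other MI hearts and outside the sham range, unlike its values for the single genes. Dcn itself was at 1.33 times its sham mean in that heart. A gene near its sham level there therefore has a lower ratio through Dcn. How many of all genes tested have a lower ratio to Dcn in every MI heart was not counted. The mean differences were -0.37 for Prelp and -0.33 for Ogn (exact two-sided permutation p = 0.0571 each), -0.36 and -0.31 without MI replicate 2, and leaving out any 1 mouse kept them between -0.40 and -0.35 and between -0.38 and -0.28. The ratio of Ecm2 to Dcn was also lower in every MI heart, with a difference of -0.68 (exact two-sided permutation p = 0.0571), and of -0.84 without MI replicate 2. The ratio of Podn differed by -0.70 with overlap (exact two-sided permutation p = 0.171). That value was -1.08 without MI replicate 2, -0.46 without MI replicate 1 and -0.45 with 0.1 added in place of 1. For Omd the direction depended on the constant added, -0.75 with 1 and 0.0057 with 0.1, so no difference from Dcn is read from it.

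**Figure D5:**
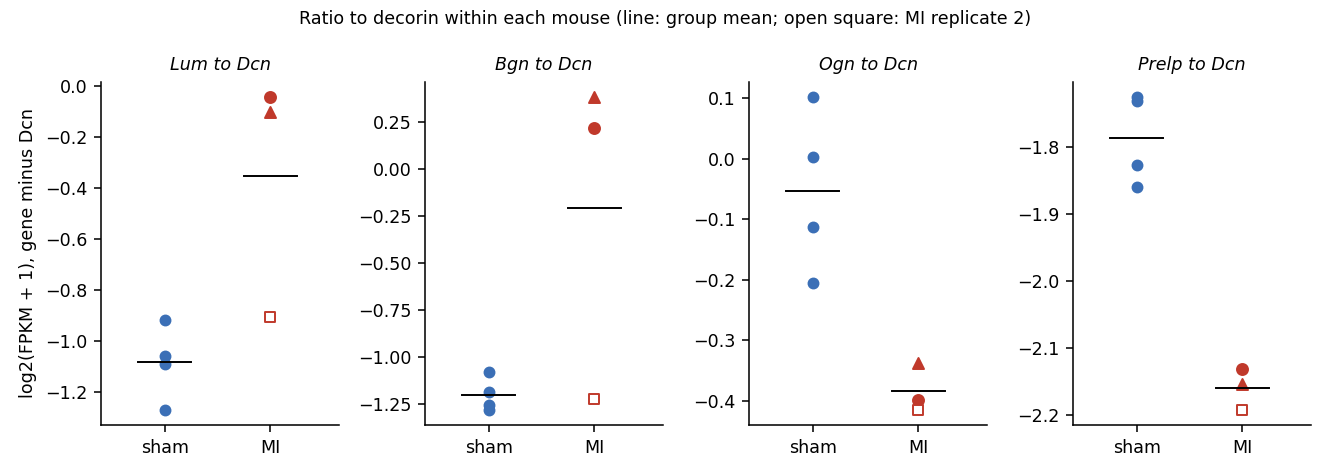
Log2(FPKM + 1) of Lum, Bgn, Ogn and Prelp minus that of Dcn in each mouse, with sham mice as blue circles, MI mice in red and the group mean as a line; each panel has its own vertical scale. MI replicate 2 (open square) sits among the sham mice for Bgn, at -1.23, but with the other MI mice for Prelp, at -2.19.

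Outside the family, the gene whose profile over the 7 mice was closest to each proteoglycan was found by the root mean square difference of the log2 deviations from the sham mean. For both Prelp and Ogn it was Gpx8, a peroxidase of the endoplasmic reticulum, at 0.031 and 0.043. It was Fcgr2b for Dcn (0.057), Pdgfrl for Bgn (0.081), Lgals3 for Aspn (0.075), Tgfb3 for Lum (0.11), Emp1 for Fmod (0.26), Rarres2 for Podn (0.12) and Bin3 for Ecm2 (0.027). The differences between MI replicate 2 and the other MI hearts weigh heavily in such distances, which describe 7 mice only.

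Of 8 further genes of the family (Kera, Epyc, Optc, Chad, Chadl, Nyx, Tsku and Podnl1), 0 passed the filter. Tsku, a class IV member that modulates several growth factor pathways, was the most abundant. It stood at 0.290, 0.411, 0.195 and 0.504 FPKM in the sham mice and at 2.13, 0.422 and 1.60 in the MI mice, with overlap. Chad (chondroadherin) was listed at 0 in 3 sham mice and at 0.0894 in the other, and stood at 0.656, 0 and 0.328 FPKM in the MI mice.

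Genes of the enzymes that build the sugar chains had a mixed record. Of 21 genes for chondroitin and dermatan sulfate synthesis 14 were tested, and 7 met the second criterion in the higher direction and 0 in the lower, beside 17.8% and 4.8% of all genes tested. Of the 7, Chst11 (0.788 to 0.903 FPKM in the sham mice) and Chpf2 (0.916 to 1.10) needed the MI mice to pass the filter. The median log2 change of the 14 was 0.59, beside 1.50 for the core proteins and 0.21 for all genes. The largest changes were those of Dse (1.46, standard error 0.41), the epimerase that turns chondroitin into dermatan sulfate, and of the sulfotransferase Chst12 (1.29, standard error 0.35). The smallest were those of the xylose kinase Fam20b (-0.17, standard error 0.084) and of B3gat3 (0.14, standard error 0.12), which act on the linker that joins chain and core. For keratan sulfate, 4 of 7 genes were tested and 2 met the criterion, both higher, B4galt1 (0.77, standard error 0.23) and Chst1 (0.77, standard error 0.30), with a median of 0.55.

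The fibrillar collagens form the fibrils to which these proteins bind. Of 6 genes, 5 were tested and all 5 met the second criterion in the higher direction, with a median log2 change of 3.29. Over all genes tested that share was 17.8%, which also stands beside the protease, ligand and receptor counts below. The collagen changes ran from 2.17 (standard error 0.69) for Col5a1 to 3.69 (standard error 0.93) for Col1a1. Col1a1 measured 17.1 to 23.0 FPKM in the sham mice and 767.5, 40.5 and 568.8 in the MI mice. Among 10 genes for proteases that trim or cleave the proteoglycans and their helper Pcolce, 6 were tested and 5 met the criterion, led by Mmp14 (2.12, standard error 0.66), which cleaves lumican, and Mmp2 (2.09, standard error 0.61). Bmp1, which removes the propeptide of biglycan, had a log2 change of 1.61 (standard error 0.50). Of 12 ligands and receptors, 8 were tested and 6 met the criterion, with Tgfb3 highest (2.20, standard error 0.62), followed by the innate receptor Tlr2 (1.63, standard error 0.49). At an adjusted p under 0.05 in limma, 0 genes of any of these lists passed, while 39.3% of the 11431 genes had an unadjusted p under 0.05. Without MI replicate 2 the median log2 change was 0.97 for chondroitin and dermatan sulfate synthesis, 0.79 for keratan sulfate, 4.49 for the collagens, 2.22 for the proteases and 1.32 for ligands and receptors, and the second criterion was met by 11 of 14, 3 of 4, 5 of 5, 6 of 6 and 8 of 8 genes, beside 35% of all genes tested in that fit.

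Markers of several cell types were higher in the same hearts as the proteoglycans. The fibroblast markers Pdgfra, Tcf21, Thy1, Ddr2 and Vim summed to 26.8 to 39.9 FPKM in the sham mice and to 128.1, 31.2 and 130.0 in the MI mice, and 4 of the 5 met the second criterion, beside 17.8% of all genes tested. Vim made up most of that sum. Pdgfra, Thy1 and Ddr2, at 3.15, 2.12 and 2.57 FPKM in MI replicate 2, were above every sham mouse there too, whose highest values were 2.58, 2.02 and 2.52. The groups of these 3 did not overlap, against 16.1% of all genes tested with MI above. Tcf21 at 2.14 and Vim at 21.2 FPKM lay within the sham range in MI replicate 2. Postn, Cthrc1, Fap and Acta2, markers of activated fibroblasts, summed to 51.1 to 78.7 in the sham mice and to 407.4, 58.3 and 428.6 in the MI mice. Of the 3 tested 2 met the second criterion, and of these Cthrc1 passed the filter only through the MI mice. Acta2 made up most of that sum in the sham mice and MI replicate 2. In that heart Postn stood at 10.8 FPKM against 3.12 to 4.06 in the sham mice and Cthrc1 at 1.40 against 0.0188 to 0.102. Fap was at 0.677 against 0.610 to 0.659. Acta2 went the other way, at 45.4 FPKM against 46.8 to 74.0 in the sham mice. Macrophage markers (Adgre1, Cd68, Csf1r, Lyz2, Ptprc) summed to 111.2 to 148.3 and to 779.5, 134.7 and 676.2 FPKM, with 4 of 4 tested past it. Tendon and cartilage markers summed to 1.89 to 2.80 and to 125.2, 2.50 and 116.8, of which Comp alone gave 108.9, 0.932 and 97.3. Only Scx of that list was tested, and 0 of 1 met the criterion. Mesothelial markers (Msln, Upk3b, Wt1) summed to 2.93 to 6.88 and to 16.3, 12.96 and 25.6, and 2 of 2 tested met it. Msln needed the MI mice to pass the filter. Endothelial markers summed to 99.3 to 116.0 and to 119.4, 92.1 and 127.8 FPKM, and those of smooth muscle and pericytes to 149.6 to 165.6 and to 148.9, 155.5 and 150.5, with 0 of 4 past the criterion in each list. Of the skin markers Krt5, Krt1 and Dsg3 were listed at 0 in every mouse, and Krt10 stood at 0.340 to 0.609 FPKM in the sham mice and at 0.623, 0.350 and 0.911 in the MI mice. Cardiac muscle markers were lower in 2 of 5 by the same criterion, beside 4.8% of all genes. With MI replicate 2 left out, the criterion was met by 5 of 5 fibroblast, 3 of 3 activated fibroblast, 4 of 4 macrophage, 1 of 4 endothelial, 1 of 4 smooth muscle and pericyte, 1 of 1 tendon and cartilage and 2 of 2 mesothelial markers, beside 35% of all genes, and 3 of 5 cardiac muscle markers were lower, beside 962 of the 11431 genes. The part of these cell types in the proteoglycan values was not tested.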

How the data were processed

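Total RNA from the myocardium of 7 mice was sequenced, and the labels gave each mouse its group. The table the authors deposited held FPKM values for 56980 Ensembl genes (0 value columns left unused). The submitters' processing notes name CASAVA 1.8, HISAT2, SAMtools 1.3.1, edgeR and the build mm10. The annotation, the counting program and the use of strand are not given in the sources used here. Symbols and positions came from GENCODE M21 on GRCm38, which held 52073 of the identifiers (91.4%).

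Whole fragments were recovered by searching, per gene, lengths from 20 to 120000 bases for one at which each mouse came to a whole number (tolerance 0.05 plus 1.5e-07 of the count), with the annotated length taken where it did so, and were found for 30503 of 30504 genes above 0. The length was unique for 9 of the 10 proteoglycans and not for Omd, for which no fragments are given. FPKM of the sham and MI mice was analysed as log2(FPKM + 1) with limma 3.58.1 (lmFit, eBayes with trend) in R 4.3.3, without covariates, over genes with at least 1 FPKM in at least 3 mice, with Benjamini-Hochberg adjustment over all genes tested. Sums, shares and ratios within mice were compared by exact two-sided permutation over the 35 splits of 3 against 4, with the p-value taken by doubling the smaller tail. P-values measure only the spread between these mice. Joins, permutations and plots were made in Python 3.11.15 with pandas 2.3.3, NumPy 2.4.6 and matplotlib 3.10.9. The limma fit and the recovery were tested on simulated data.

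The 10 genes, the gene lists and the tests were chosen with earlier results of these data known. Genes named are the 10, genes of lists written by hand (other family genes, chain synthesis, proteases, collagens, ligands and receptors, cell type markers), with at most 4 values per list for the largest and smallest changes apart from markers, and the nearest profile outside the family. Bmp1, Tsku, Chad and Comp were chosen for description after their values were seen. Egfr, Mmp3, Chst11 and Chpf2 are named only for how they passed the filter. Alternatives were a pseudocount of 0.1, other filters, scalings and variance models, a replicate block and each mouse left out. Rescaling to fragments outside the 37 mitochondrial genes, M21 exon lengths, and shares and lists without MI replicate 2 were added after seeing the data. Protein sequences were not analysed here. An FPKM from few fragments is imprecise by counting error.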

Additional observations from a re-analysis of the deposited data

Results flagged for a closer look

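Of 34 sets of sham values tested, in 2 a single sham heart stood apart from the other 3, its gap to the nearest taking up more of the range than Dixon's 95% critical value allows. The share of Prelp in the summed FPKM of the 10 genes was 8.20% in sham replicate 2 and 7.86 to 7.92% in the others, a gap of 0.843 of the range. The share of Bgn among the 9 genes other than Dcn was 16.3% in sham replicate 4 and 17.5 to 17.7% in the others, a gap of 0.842. Chance flags about 1 in 20 such sets, or 1.7 of 34. The MI group of 3 was not examined in this way.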

How the results depend on the processing

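The log2 changes of the 9 tested proteoglycans kept their direction in all 162 alternatives run (18 per gene), and passed an adjusted p of 0.05 in 18 of them, all with sample weights or without MI replicate 2. The sample weights did not converge and gave MI replicate 3 a weight of 436.7 against 0.0217 for MI replicate 2. The number of the proteoglycans at an adjusted p under 0.05 in limma was 9 with sample weights and 0 to 9 across the fits that each left out 1 mouse. Of all 11431 genes tested, 7636 were higher at that adjusted p with sample weights and 6512 (57.0%) without MI replicate 2. The number of the proteoglycans past an unadjusted p of 0.05 and a log2 change of 0.5 ran from 5 to 9 across the fits that left out 1 mouse. The number of the 10 with groups apart ran from 5 to 10 across those same fits. Both were 5 without MI replicate 1 (5.57% and 16.9% of all genes tested) and without MI replicate 3 (5.6% and 16.9%), and 9 and 10 without MI replicate 2 (35% and 61.9%).

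Over all genes tested, 3 passed an adjusted p of 0.05 in limma (2 higher, 1 lower). It was 6 with a pseudocount of 0.1, 21 without a filter, 0 where genes were filtered by mean FPKM (4740 by the unadjusted p), 15 with quantile normalization, 14 with median log-ratio scaling, 11 relative to fragments outside mitochondrial genes, 9952 with sample weights, and from 0 to 8195 with 1 mouse left out (1487 to 8492 unadjusted), 8195 without MI replicate 2. The median gene moved from 0.21 to 0.42 with TPM and to -0.031 with quantile normalization. Of genes past both lines 78.8% were higher in MI, and 92.7% with TPM, 46.8% with quantile normalization, 55.9% with median log-ratio scaling and 64.6% outside mitochondrial genes. The cause of these moves was not tested.

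The replicate block gave 0 genes at an adjusted p under 0.05 in limma (2332 unadjusted) and left 0 of the 9 proteoglycans past it. Same-numbered sham and MI mice did not deviate together (correlations across genes of -0.080 to 0.074), so the numbers only name mice.

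The summed FPKM kept its direction in all 11 alternatives, from 1.45 to 2.64. The difference in the share of Dcn, MI minus sham, was -5.54 percentage points, -6.11 with M21 exon lengths and -9.43 to -3.42 with 1 mouse left out. With Dcn left out, the share of Bgn in the other 9 genes was 9.25 percentage points higher, which is another quantity by construction. Of 72 alternatives for the ratios to Dcn, 71 kept their direction, and the ratio of Omd turned from -0.75 to 0.0057 with a pseudocount of 0.1. With 3 against 4 mice no permutation test of the kind used here, which doubles the smaller tail, could pass 0.05.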

Other observations

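Among the sham mice, 3 of the 10 proteoglycans varied more than the others. The coefficient of variation was 44.6% for Fmod, 27.5% for Podn and 24.0% for Omd, and 2.52 to 7.55% for the other 7. Fmod and Podn were lowest in sham replicate 2 and highest in sham replicate 4. The mesothelial gene Msln had the same order over the sham mice, at 0.745, 0.556, 1.59 and 1.96 FPKM in replicates 1 to 4, beside 0.952, 0.606, 1.54 and 1.81 for Fmod. In MI replicate 2 Msln and Fmod parted, at 5.32 and 1.11 FPKM. Podn, at 2.93 FPKM, lay above every sham mouse there, as Msln did. The other mesothelial genes did not share the order, with Upk3b at 1.73, 1.83, 3.19 and 4.28 FPKM and Wt1 at 0.486, 0.544, 0.481 and 0.640. Msln was chosen after its values were seen, no correlation over the 4 mice was computed, and the part of mesothelium in the values was not tested.

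MI replicate 2 lay within the sham range for Prelp and Ogn taken singly and outside it for their ratios to Dcn. Its Dcn value, 58.4 FPKM, was 1.33 times the sham mean, while Prelp and Ogn were at 0.998 and 1.03 times theirs. Lum and Podn were at 1.52 and 1.55 times their sham means in the same heart, and Fmod at 0.907.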
